A study of Mus musculus with 6 samples.

Results

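The ligand gene Bmp4, 3 receptor genes, 3 Smad genes and 3 Id genes form the set of 10 BMP and TGF-beta signalling genes described here. They were chosen by symbol, and all 10 were found among the 36172 genes of the deposited RPKM table (read density normalised to gene length and library size). RNA came from organoids, which are cultures of tumor epithelium grown in a gel, made from small intestinal tumors of C57BL/6 mice aged 15-20 weeks. All of the mice carried the Apc truncation Apc(D716), with loss of the other Apc allele in the tumor, and the groups differed in p53. Apc(D716) p53(+/+) organoids have wild-type p53. Apc(D716) p53(flox/flox) organoids are homozygous for an allele with a stop cassette before the R270H mutation, which is null until it is recombined. Apc(D716) p53(M/M) organoids express missense p53 R270H from both alleles after tamoxifen-induced recombination by villin-CreER, a Cre active in intestinal epithelium, so that tamoxifen exposure and the missense protein cannot be told apart between p53(M/M) and p53(flox/flox). Whether the p53(+/+) mice carried villin-CreER or received tamoxifen is not given in the sources used here, so the same limit may apply to p53(M/M) against p53(+/+). There were 2 libraries per genotype, each from another mouse.

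Bone morphogenetic proteins (BMPs) and TGF-beta ligands bind pairs of type I and type II receptor kinases on the cell surface. The receptors phosphorylate receptor-activated Smad proteins, which join Smad4 and enter the nucleus to change transcription. Smad6 and Smad7 inhibit the pathway and are themselves induced by it, and the Id genes are classic BMP targets whose proteins block basic helix-loop-helix transcription factors. In the normal gut, BMP signals are strongest toward the villus and restrict stem cells to the crypt, and TGF-beta restrains epithelial growth. Media for intestinal organoids commonly contain the BMP antagonist Noggin, but the composition used for these cultures is not given in the sources used here.

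Trp53 itself was at 75.9 and 74.3 RPKM in p53(+/+), 1.73 and 2.48 in p53(flox/flox) and 72.8 and 82.7 in p53(M/M) libraries, low only in p53(flox/flox). The lowest value in the table is 1 RPKM, taken here as a floor, and a ratio against a group at the floor is a lower bound. The table holds no read counts. From the steps of 1 read in the values of short RNA genes, the depth was estimated at 44200000 to 47200000 mapped reads in 5 libraries, while in p53(flox/flox) replicate 1 the estimate rested on only 7 genes and is not used. The test took genes that reached 4 RPKM in any library, which left 10042 genes and 9 of the 10 members; Bmp4 passed through p53(M/M) and 1 p53(+/+) library. The libraries of a genotype differed by a median s.d. of 0.0463 on the log2 scale in p53(+/+) and 0.0621 in p53(M/M), but 0.247 in p53(flox/flox). The fit with limma, on log2(RPKM+1), pools this spread over the 3 genotypes, and all adjusted p-values are Benjamini-Hochberg values over the 10042 genes. With 2 libraries against 2, an exact permutation test of a single gene cannot go below p=0.333, so every call of a gene rests on the pooled spread. When a p53(flox/flox) library is left out the pooled spread shrinks, and limma then calls 57.8% of all genes for p53(M/M) against p53(+/+) without either of them, 41.9% and 69.3% for p53(flox/flox) against p53(+/+) without replicate 1 and 2, and 54.0% and 72.8% for p53(M/M) against p53(flox/flox). Calls of members and of other pathway genes that appear only in these fits are to be read against these shares. The 3 comparisons share libraries and are not independent of each other.

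Bmp4, a ligand of the BMP branch (chromosome 14, 46383520 to 46390669, minus strand, GRCm38), had the widest range of the members across genotypes relative to its level. It was measured at 4.22 and 3.98 RPKM in p53(+/+), at the floor of 1 in both p53(flox/flox) libraries, and at 17.6 and 15.6 RPKM in p53(M/M). The 3 genotypes did not overlap, with p53(flox/flox) lowest and p53(M/M) highest. The p53(M/M) mean of 16.6±1.42 RPKM (s.d., n=2) was 4.05-fold that of p53(+/+), a log2 fold change of 1.79 (s.e. 0.12, limma adjusted p=0.00367). It was at least 16.6-fold that of p53(flox/flox), with a log2 fold change of 3.14 (s.e. 0.12, limma adjusted p=0.00143). In p53(flox/flox) Bmp4 fell by 1.35 on the log2 scale against p53(+/+) (s.e. 0.12, limma adjusted p=0.00995), at least 4.10-fold lower. The floor hides any difference between the p53(flox/flox) replicates, so that genotype added no spread to the standard errors of Bmp4. The difference between p53(M/M) and p53(flox/flox) was called under all 14 alternative settings, with adjusted p-values of at most 0.037. Against p53(+/+), the p53(M/M) call was lost without p53(+/+) replicate 1 (adjusted p=0.0704), p53(+/+) replicate 2 (0.0738) or p53(M/M) replicate 1 (0.0522), and the p53(flox/flox) call without any 1 of the p53(+/+) libraries (0.15 and 0.164) or the p53(M/M) libraries (0.0607 and 0.0627), with limma throughout. The latter was also lost with weights for each genotype (0.0595) and in a fit of the 2 genotypes compared (0.0508).

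The 300 bases around the start site of Bmp4 (250 before and 50 after it, RefSeq on GRCm38.p6, chr14:46390620-46390919, minus strand) are shown because this gene separated all 3 genotypes. Capitals would mark any of the letters GGCGCC (a GC-rich Smad-binding core), CAGAC (a Smad box) or CTTTG (the core bound by TCF factors) on either strand, and this window holds none of them, which says nothing about binding elsewhere.
Bmp4: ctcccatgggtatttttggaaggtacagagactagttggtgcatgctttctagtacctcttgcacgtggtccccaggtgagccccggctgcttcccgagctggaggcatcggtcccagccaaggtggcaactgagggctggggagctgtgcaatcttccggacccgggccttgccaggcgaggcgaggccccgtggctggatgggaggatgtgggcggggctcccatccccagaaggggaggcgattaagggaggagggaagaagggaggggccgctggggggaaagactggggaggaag

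**Figure D1:**
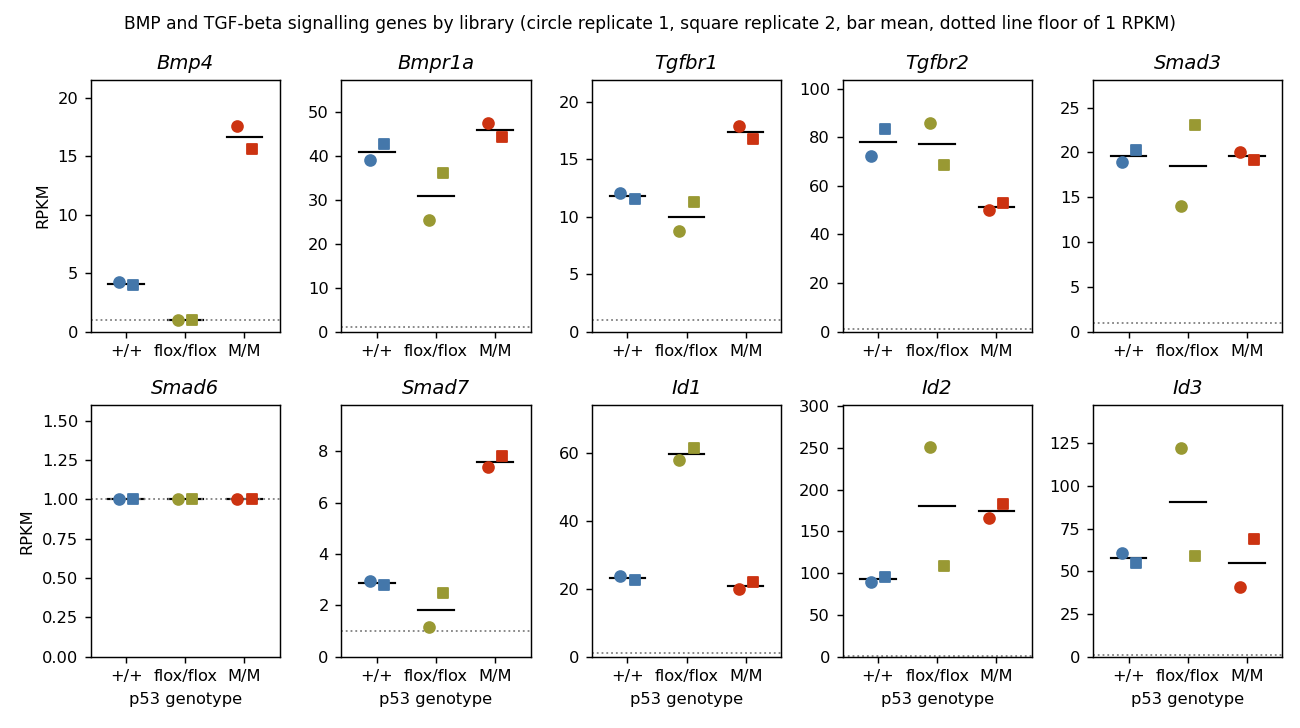
RPKM of the 10 members in each of the 6 libraries, with p53 genotype on the horizontal axis, circles for replicate 1, squares for replicate 2, bars for the mean of 2 and a dotted line at the floor of 1 RPKM; each panel has its own linear axis from 0. Bmp4 and Smad7 are highest in both p53(M/M) libraries, Id1 is highest in both p53(flox/flox) libraries at 57.8 and 61.4 RPKM, and Smad6 is at the floor throughout.

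Among the receptors, the TGF-beta type I and type II receptor genes differed in opposite directions between p53(M/M) and p53(flox/flox). Tgfbr1, the type I receptor kinase (chromosome 4, 47353222 to 47414931, plus strand), was at 12.1 and 11.5 RPKM in p53(+/+), 8.71 and 11.2 in p53(flox/flox) and 17.9 and 16.7 in p53(M/M). The p53(M/M) libraries lay above the other 4. Its log2 fold change was 0.75 between p53(M/M) and p53(flox/flox) (s.e. 0.14, limma adjusted p=0.0241, 1.74-fold) and 0.52 against p53(+/+) (s.e. 0.14, limma adjusted p=0.0756).

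Tgfbr2, the type II receptor that binds the ligand first (chromosome 9, 116084293 to 116175360, minus strand), was at 72.3 and 83.4 RPKM in p53(+/+), 86.0 and 68.5 in p53(flox/flox) and 50.1 and 52.8 in p53(M/M). Both p53(M/M) libraries lay below the other 4, whereas p53(+/+) and p53(flox/flox) overlapped. It fell by 0.57 on the log2 scale in p53(M/M) against p53(flox/flox) (s.e. 0.15, limma adjusted p=0.0479), and the difference from p53(+/+) was -0.59 (s.e. 0.15, limma adjusted p=0.0634). Both calls were marginal. That of Tgfbr1 held in 7 of the 14 alternatives and that of Tgfbr2 in 5. Both were lost without any 1 of the p53(+/+) or p53(M/M) libraries. They were also lost with weights for each genotype, in a fit of the 2 genotypes compared and with the replicate number as a block. Over the alternatives the log2 fold change ranged from 0.58 to 0.91 for Tgfbr1 and from -0.73 to -0.41 for Tgfbr2. Without p53(flox/flox) replicate 1, in a fit that called 57.8% of all genes, limma called Tgfbr1 higher (adjusted p=0.00259) and Tgfbr2 lower (0.00355) in p53(M/M) than in p53(+/+), and without p53(flox/flox) replicate 2 the values were 0.00257 and 0.00344. Tgfbr1 was also called lower in p53(flox/flox) than in p53(+/+) without p53(flox/flox) replicate 2 (log2 fold change -0.395, limma adjusted p=0.00858).

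Bmpr1a, the main type I receptor for BMPs in gut epithelium (chromosome 14, 34410734 to 34503341, minus strand), was at 39.1 and 42.7 RPKM in p53(+/+), 25.5 and 36.2 in p53(flox/flox) and 47.5 and 44.2 in p53(M/M). The genotypes did not overlap and followed the same order as for Bmp4, but no difference passed the test. The log2 fold change was 0.58 between p53(M/M) and p53(flox/flox) (unadjusted 95% interval 0.12 to 1.04, limma adjusted p=0.0724). It was 0.16 between p53(M/M) and p53(+/+), with an interval of -0.30 to 0.62. Without p53(flox/flox) replicate 1 the first difference was 0.33 (limma adjusted p=0.0241), and without p53(flox/flox) replicate 2 it was 0.82 (7.5e-04). Without replicate 2, Bmpr1a was also called lower in p53(flox/flox) than in p53(+/+) (-0.66, limma adjusted p=0.00167).

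The windows around the start sites of the TGF-beta receptor genes, again 250 bases before and 50 after the site (RefSeq, GRCm38.p6), are shown because these members moved in opposite directions. The Tgfbr1 window is chr4:47352972-47353271 on the plus strand and the Tgfbr2 window chr9:116175314-116175613 on the minus strand, and capitals mark the same motifs as for Bmp4.
Tgfbr1: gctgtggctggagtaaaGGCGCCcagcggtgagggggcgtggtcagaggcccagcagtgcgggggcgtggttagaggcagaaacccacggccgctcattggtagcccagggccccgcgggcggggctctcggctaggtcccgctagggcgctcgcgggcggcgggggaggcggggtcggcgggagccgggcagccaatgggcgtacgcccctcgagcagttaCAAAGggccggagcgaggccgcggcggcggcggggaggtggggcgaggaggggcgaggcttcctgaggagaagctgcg
Tgfbr2: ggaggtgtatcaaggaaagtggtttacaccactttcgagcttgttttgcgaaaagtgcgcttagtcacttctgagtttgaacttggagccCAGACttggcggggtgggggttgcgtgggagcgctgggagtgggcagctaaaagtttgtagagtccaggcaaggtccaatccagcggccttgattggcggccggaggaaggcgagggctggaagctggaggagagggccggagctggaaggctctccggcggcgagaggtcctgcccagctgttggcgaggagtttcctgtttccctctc
The Tgfbr1 window has 1 GGCGCC and 1 CTTTG site and is 74.7% G or C. A further RefSeq start site of Tgfbr1 inside the gene (chr4:47385966-47386265, plus strand, not shown) has 1 CAGAC and 1 CTTTG site, no GGCGCC and 52.0% G or C. The Tgfbr2 window has 1 CAGAC site and 1 match to the p53 half-site consensus, and is 59.0% G or C. Of all 32851 RefSeq windows of this length, 11.9% hold GGCGCC, 49.6% CAGAC, 53.9% CTTTG and 8.36% a p53 half-site, and their median G and C content is 52.7%, so these matches are a description only. RefSeq windows were found for 8 of the 10 members. None was found for Id1 or Smad7.

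Of the Smad genes, limma called Smad7 in 2 comparisons and Smad3 in 0, also at an unadjusted p under 0.05. Smad3, the receptor-activated Smad of the TGF-beta branch (chromosome 9, 63646767 to 63757994, minus strand), was at 18.9 and 20.3 RPKM in p53(+/+), 14.0 and 23.1 in p53(flox/flox) and 20.1 and 19.1 in p53(M/M). All 3 genotypes overlapped, and the log2 fold change between p53(M/M) and p53(+/+) was 0.00 (interval -0.59 to 0.60, limma adjusted p=0.997). The p53(flox/flox) pair spanned the other 4 libraries. Without p53(flox/flox) replicate 2, Smad3 was called lower in p53(flox/flox) than in p53(+/+), with a log2 fold change of -0.46 (limma adjusted p=0.00462), and higher in p53(M/M) than in p53(flox/flox), with 0.46 (0.00405). Without p53(flox/flox) replicate 1 both differences turned and were not called, at 0.23 in p53(flox/flox) against p53(+/+) (limma adjusted p=0.068) and -0.23 in p53(M/M) against p53(flox/flox) (0.0589).

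Smad7, an inhibitor that binds the activated receptors (chromosome 18), was at 2.95 and 2.80 RPKM in p53(+/+), 1.17 and 2.49 in p53(flox/flox) and 7.37 and 7.83 in p53(M/M). The genotypes did not overlap and had the same order as Bmp4, and Smad7 passed the filter only through p53(M/M). Its p53(M/M) mean of 7.60±0.329 RPKM (s.d., n=2) was 2.64-fold that of p53(+/+), a log2 fold change of 1.15 (s.e. 0.25, limma adjusted p=0.0439), and 4.16-fold that of p53(flox/flox), a log2 fold change of 1.65 (s.e. 0.25, limma adjusted p=0.0145). Between p53(flox/flox) and p53(+/+) the log2 fold change was -0.50 (interval -1.12 to 0.13, limma adjusted p=0.213), and it was called at -0.84 without p53(flox/flox) replicate 2 (0.000974). The call against p53(+/+) was close to the threshold: limma gave adjusted p=0.0689 with a pseudocount of 0.1, and 0.231 to 0.296 without any 1 of the p53(+/+) or p53(M/M) libraries. The same libraries decided the call against p53(flox/flox), with limma adjusted p-values of 0.0635 to 0.136 without them. Smad6, the inhibitor that acts mainly on the BMP branch (chromosome 9, 63953076 to 64022059, minus strand), stood at the floor of 1 RPKM in all 6 libraries and gives no comparison.

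The order of the genotypes in the Id genes was not that of Bmp4. Id1 (chromosome 2, 152736251 to 152737410, plus strand), the Id gene most often used as a BMP readout, was at 23.9 and 22.5 RPKM in p53(+/+), 57.8 and 61.4 in p53(flox/flox) and 19.9 and 21.9 in p53(M/M). Both p53(flox/flox) libraries lay far above the other 4, and the replicates of each genotype were close together. The p53(flox/flox) mean of 59.6±2.56 RPKM (s.d., n=2) was 2.57-fold that of p53(+/+), a log2 fold change of 1.33 (s.e. 0.10, limma adjusted p=0.00691). Id1 fell by 1.47 on the log2 scale in p53(M/M) against p53(flox/flox) (s.e. 0.10, limma adjusted p=0.00257), whereas the difference between p53(M/M) and p53(+/+) was -0.14 (interval -0.41 to 0.12, limma adjusted p=0.395). The difference between p53(M/M) and p53(flox/flox) was called under all 14 alternatives, with adjusted p-values of at most 0.045. The rise in p53(flox/flox) over p53(+/+) was not called without p53(+/+) replicate 1 (limma adjusted p=0.121), p53(+/+) replicate 2 (0.146), p53(M/M) replicate 1 (0.0577) or p53(M/M) replicate 2 (0.0594), nor in a fit of the 2 genotypes compared (0.0519). In every alternative its log2 fold change stayed between 1.28 and 1.37.

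Id2 (chromosome 12, 25093799 to 25097140, minus strand), the member with the highest level per length, was at 90.0 and 95.7 RPKM in p53(+/+), 251 and 109 in p53(flox/flox) and 166 and 183 in p53(M/M). Every p53(flox/flox) and p53(M/M) library lay above both p53(+/+) libraries, and the p53(flox/flox) pair enclosed the p53(M/M) pair. In the fit of all 6 libraries no difference was called: the log2 fold change against p53(+/+) was 0.90 in p53(M/M) (interval -0.07 to 1.87, limma adjusted p=0.179) and 0.83 in p53(flox/flox) (interval -0.15 to 1.80, limma adjusted p=0.19). The spread of the p53(flox/flox) pair enters both. With p53(flox/flox) replicate 1 left out, limma called Id2 higher in p53(M/M) than in p53(+/+) at adjusted p=0.000645, and with replicate 2 left out at 0.000624. Without replicate 2 it was also called higher in p53(flox/flox) than in p53(+/+) (1.42, limma adjusted p=0.000257). The difference between p53(M/M) and p53(flox/flox) turned with the library left out, from 0.67 without p53(flox/flox) replicate 1 (limma adjusted p=0.00322) to -0.52 without replicate 2 (0.00359), so the order of these genotypes for Id2 rested on which library was kept.

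Id3 (chromosome 4, 136143497 to 136145755, plus strand) was at 60.8 and 54.7 RPKM in p53(+/+), 123 and 58.8 in p53(flox/flox) and 41.1 and 68.8 in p53(M/M). The p53(+/+) pair lay within the range of p53(M/M), and Id3 was the only member whose p53(M/M) replicates differed by more than 0.5 on the log2 scale. Its log2 fold changes were -0.11 in p53(M/M) (interval -1.15 to 0.92, limma adjusted p=0.879) and 0.55 in p53(flox/flox) (interval -0.48 to 1.58, limma adjusted p=0.365) against p53(+/+). Without p53(flox/flox) replicate 2 the value in p53(flox/flox) was 1.07 (limma adjusted p=0.0218), and p53(M/M) was called lower than p53(flox/flox), at -1.19 (0.0143).

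**Figure D2:**
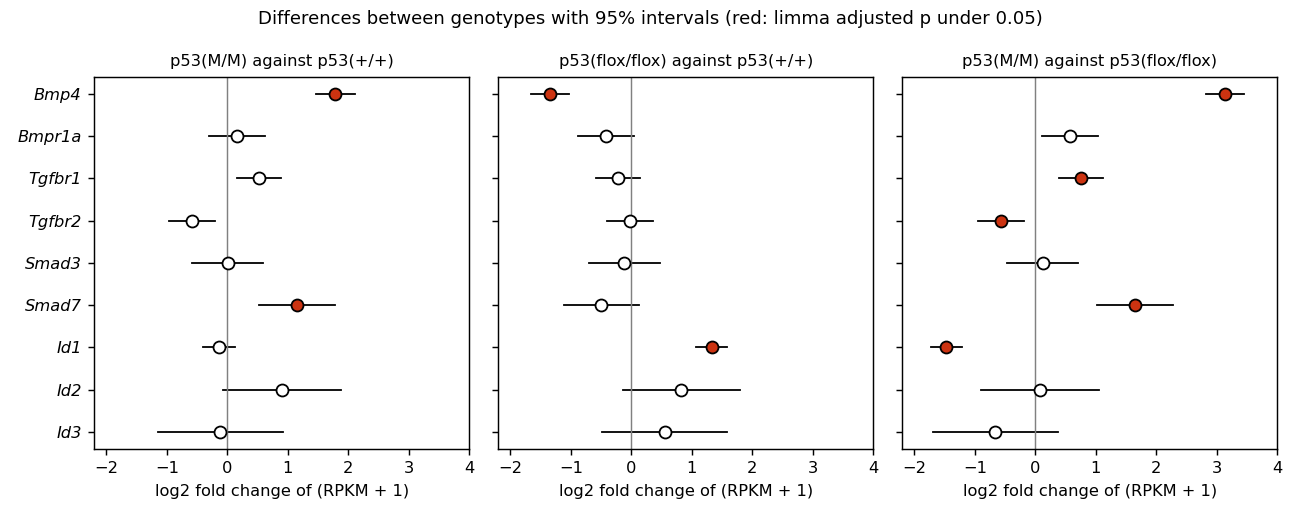
Log2 fold changes of (RPKM + 1) for the 9 members tested in the 3 comparisons, with unadjusted 95% intervals from limma; red points have an adjusted p under 0.05 and open points do not. Bmp4 differs in every comparison, Id1 in both that include p53(flox/flox), and the intervals of Id2 and Id3 are the widest.

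Counted over the 9 members tested, limma called 2 higher and 0 lower in p53(M/M) than in p53(+/+) (Bmp4 and Smad7), where it called 12.2% of all 10042 genes, 5.86% of them higher and 6.36% lower. At an unadjusted p under 0.05 there were 4 members, a looser cut for which no share of all genes is given here. Smad7 enters this count, and that against p53(flox/flox), only because its p53(M/M) level passed the filter. In p53(flox/flox) against p53(+/+) it called Id1 higher and Bmp4 lower, where 11.3% of all genes were called, 4.38% higher and 6.90% lower. Between p53(M/M) and p53(flox/flox) it called 5 of 9, with Bmp4, Smad7 and Tgfbr1 higher and Tgfbr2 and Id1 lower, against 24.6% of all genes, 13.6% higher and 11.0% lower. The median log2 fold change of the members was 0.16, -0.12 and 0.12 in these comparisons, against 0.03, -0.02 and 0.03 over all genes. Both p53(M/M) libraries lay above both p53(+/+) libraries for 5 members and below them for 2, while 44.2% and 37.6% of all genes did so. For p53(flox/flox) against p53(+/+) the counts were 2 above and 4 below, against 30.6% and 33.9% of all genes. For p53(M/M) against p53(flox/flox) they were 4 above and 2 below, against 36.8% and 31.2%. Leaving out 1 library moved the number of members called between 0 and 5 for p53(M/M) against p53(+/+), with 0 without either p53(+/+) library or p53(M/M) replicate 1, 1 without p53(M/M) replicate 2 and 5 without either p53(flox/flox) library, where 57.8% of all genes were called. It moved the count between 0 and 8 for p53(flox/flox) against p53(+/+), with 0 without either p53(+/+) or p53(M/M) library and 8 without p53(flox/flox) replicate 2, where 69.3% of all genes were called. For p53(M/M) against p53(flox/flox) it gave 2 without any 1 of the p53(+/+) or p53(M/M) libraries, 7 without p53(flox/flox) replicate 1 and 9 without p53(flox/flox) replicate 2, where 54.0% and 72.8% of all genes were called.

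Around these members, 56 other genes of the pathway were examined by role, of which 30 passed the filter and 19 stood at the floor in all 6 libraries. Limma called 5 of the 30 higher and 0 lower in p53(M/M) than in p53(+/+), 0 higher and 2 lower in p53(flox/flox) than in p53(+/+), and 10 higher and 2 lower in p53(M/M) than in p53(flox/flox), where 12.2%, 11.3% and 24.6% of all genes were called. At an unadjusted p under 0.05 the numbers were 9, 10 and 15. No share of all genes is given here for this looser cut, so these numbers are not to be set against the shares above. The median log2 fold changes were 0.32, -0.14 and 0.50, against 0.03, -0.02 and 0.03 over all genes. Inhbb passed the filter only through p53(M/M), where it could only come out as higher. It enters these medians and the counts of genes called higher in p53(M/M).

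Of 8 ligands tested, limma called 3 higher in p53(M/M) than in p53(+/+), 2 lower in p53(flox/flox) than in p53(+/+) and 4 higher in p53(M/M) than in p53(flox/flox). Of all genes, 5.86%, 6.90% and 13.6% were called in these directions. The 3 and the 4 include Inhbb, tested only through its p53(M/M) level. Tgfb2, a TGF-beta ligand, was at 3.80 and 4.02 RPKM in p53(+/+), at the floor in both p53(flox/flox) libraries and at 11.0 and 9.07 in p53(M/M), so that its genotypes had the order seen for Bmp4. Its log2 fold change was 1.16 in p53(M/M) (s.e. 0.14, limma adjusted p=0.0122) and -1.30 in p53(flox/flox) (s.e. 0.14, limma adjusted p=0.0132) against p53(+/+). Inhbb, which encodes the activin B subunit, was at the floor in p53(+/+) and p53(flox/flox) and at 4.78 and 4.39 RPKM in p53(M/M), through which alone it passed the filter, and was at least 4.59-fold higher (limma adjusted p=0.00664 and 0.0053). Gdf11, an activin-like ligand, rose from 4.83 and 2.66 RPKM in p53(+/+) to 12.1 and 11.0 in p53(M/M) (limma adjusted p=0.0382), with 1.40 and 2.43 in p53(flox/flox).

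Bmp7, a BMP ligand, was instead at similar levels in p53(+/+) (22.4 and 22.1 RPKM) and p53(M/M) (24.3 and 23.6) and at 10.4 and 8.60 RPKM in p53(flox/flox). It fell by 1.15 on the log2 scale in p53(flox/flox) against p53(+/+) (s.e. 0.12, limma adjusted p=0.0126). Bmp2, another BMP ligand, was at 1.70 and 1.84 RPKM in p53(+/+), 1.18 and 4.43 in p53(flox/flox) and 5.10 and 4.35 in p53(M/M), and the p53(flox/flox) pair overlapped both other genotypes. Tgfb1 was low throughout, at 1.97 and 2.23, 1.29 and 4.51, and 1.25 and 1.27 RPKM in p53(+/+), p53(flox/flox) and p53(M/M), and no difference in Bmp2 or Tgfb1 was called. Of the 13 other ligand genes, 4 were at the floor in all libraries.

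Of the 10 other receptor genes, 4 were tested and 0 called by limma, and another 4 were at the floor in all libraries. At an unadjusted p under 0.05 there were 0 for p53(M/M) against p53(+/+), 1 for p53(flox/flox) against p53(+/+) and 2 for p53(M/M) against p53(flox/flox). No share of all genes is given here for this cut. Among the other Smads, the BMP-branch genes Smad1 and Smad5 and the TGF-beta-branch gene Smad2 were called higher in p53(M/M) than in p53(flox/flox). Smad1 was at 8.74 and 8.65 RPKM in p53(+/+), 7.75 and 8.36 in p53(flox/flox) and 11.7 and 11.9 in p53(M/M), and Smad5 at 11.6 and 11.6, 8.40 and 10.4, and 16.1 and 15.2. Their log2 fold changes between p53(M/M) and p53(flox/flox) were 0.50 (s.e. 0.10, limma adjusted p=0.0272) and 0.68 (s.e. 0.13, limma adjusted p=0.0243), and that of Smad2 was 0.41 (s.e. 0.11, limma adjusted p=0.0482). The calls of Smad1, Smad5 and Smad2 were kept under 7, 7 and 3 of the 14 alternatives. Smad4, the common partner that is often lost in colorectal cancer, was at 30.3 and 29.8 RPKM in p53(+/+), 31.4 and 36.8 in p53(flox/flox) and 37.2 and 36.5 in p53(M/M), and was called in 0 comparisons.

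Among 20 inhibitors and modulators, 9 were tested. Twsg1, a secreted BMP-binding protein, was at 13.8 and 13.2 RPKM in p53(+/+), 10.8 and 13.1 in p53(flox/flox) and 22.1 and 21.8 in p53(M/M), and was called higher in p53(M/M) than in p53(+/+) (log2 fold change 0.66, s.e. 0.12, limma adjusted p=0.0321) and than in p53(flox/flox) (0.83, s.e. 0.12, limma adjusted p=0.0139). Nbl1, a BMP antagonist, was called higher in p53(M/M), at 6.62 and 7.34 RPKM, than in p53(+/+), at 3.35 and 3.70 (limma adjusted p=0.0444). In p53(flox/flox) Nbl1 was at 4.86 and 6.80 RPKM, above both p53(+/+) libraries and overlapping p53(M/M). Neither difference of p53(flox/flox) was called (limma adjusted p=0.0906 against p53(+/+) and 0.337 against p53(M/M)). The secreted antagonists Nog and Grem1 stood at the floor in all 6 libraries, and Bambi, a decoy receptor, was under the filter at 1.00 to 2.35 RPKM. Among the 8 other targets, 5 were tested, and 4 were called, all between p53(M/M) and p53(flox/flox) and in both directions. That comparison called 24.6% of all genes. Msx1, a BMP target, was at 12.8 and 13.9 RPKM in p53(M/M) and 5.39 and 2.20 in p53(flox/flox), and Tgfbi, a matrix protein induced by TGF-beta, at 8.26 and 7.26 against 3.37 and 1.00 (limma adjusted p=0.0259 and 0.0382). Ctgf, a matrix-associated target of TGF-beta and YAP, was lower in p53(M/M), at 9.28 and 10.8 against 22.0 and 43.8 RPKM, as was Cdkn2b, a cell cycle inhibitor, at 4.19 and 4.25 against 7.60 and 10.7 (limma adjusted p=0.0297 and 0.0223). In p53(+/+) all 4 lay between the other genotypes. Msx1 was there at 9.16 and 8.18 RPKM, Tgfbi at 6.73 and 5.88, Ctgf at 13.0 and 15.7, and Cdkn2b at 5.79 and 6.03. Against p53(+/+) their log2 fold changes were larger in size in p53(flox/flox) (-1.10, -1.30, 1.07 and 0.54) than in p53(M/M) (0.57, 0.26, -0.48 and -0.40). The 4 calls held in 9, 7, 8 and 8 of the 14 alternatives.

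**Figure D3:**
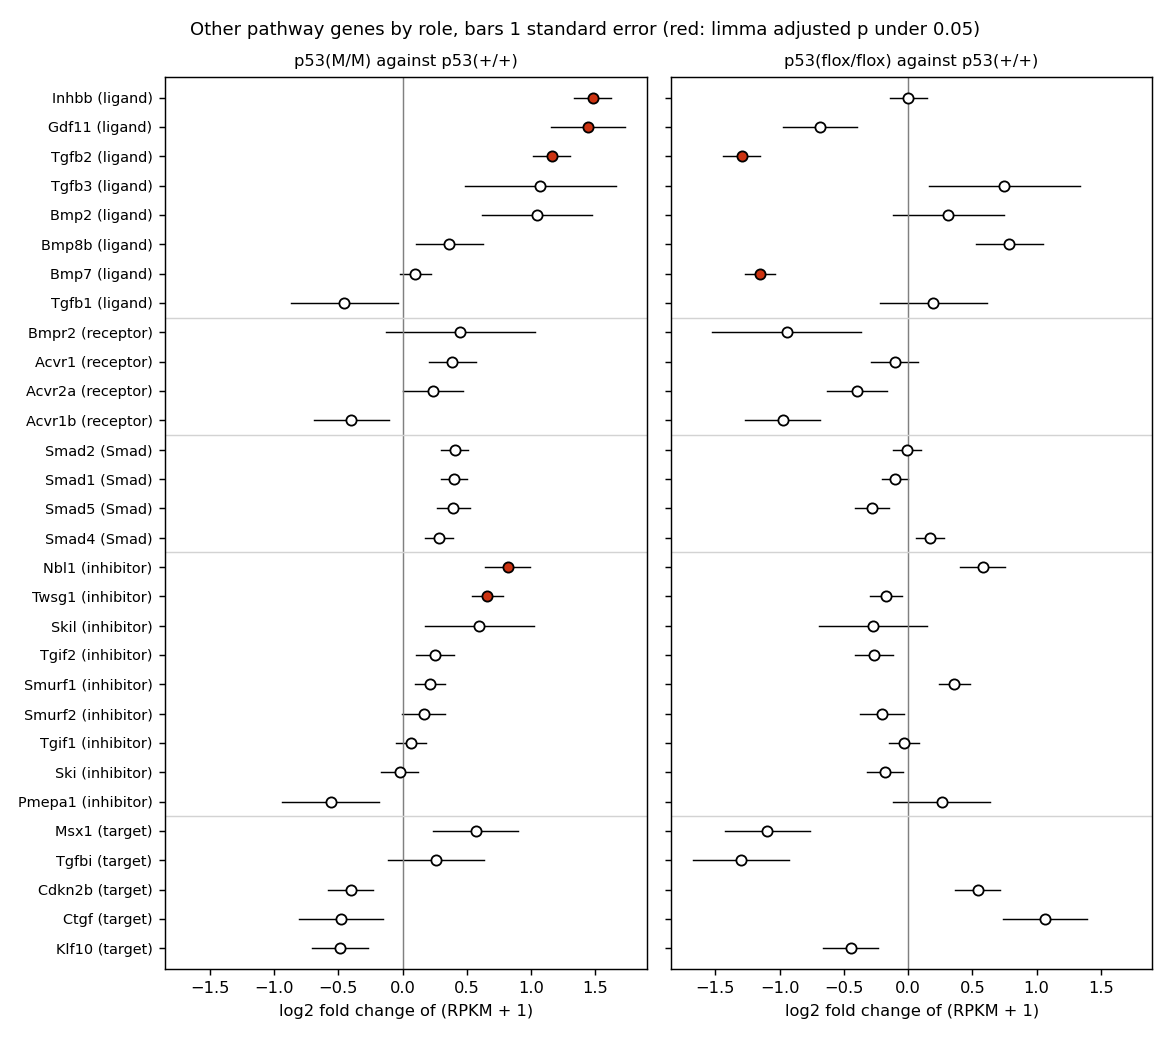
Log2 fold changes of (RPKM + 1) against p53(+/+) for the 30 other pathway genes tested, ordered by role, with bars of 1 standard error; red points have a limma adjusted p under 0.05. In p53(M/M) the 5 red points are 3 ligands and 2 inhibitors, all higher, and in p53(flox/flox) they are Tgfb2 and Bmp7, both lower.

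Of the 19 calls of other pathway genes, those of Tgfb2 and Inhbb between p53(M/M) and p53(flox/flox) held under all 14 alternatives, but Inhbb was tested only because of its level in p53(M/M). The calls of Gdf11, Twsg1 and Nbl1 in p53(M/M) against p53(+/+) held in 7, 8 and 8 of them. Tgfb2 and Inhbb stood at the floor in both p53(flox/flox) libraries. The floor hides any difference between those replicates, so that genotype added no spread to the fits of these genes. When 1 library was left out, fewer of these genes were called without any 1 of the p53(+/+) or p53(M/M) libraries, in every comparison. More were called without either p53(flox/flox) library. The number called over all genes moved in the same way in these fits, so the shift was not particular to the pathway genes.

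The p53(flox/flox) libraries differed from each other in these genes as they did across all genes. Over the 39 members and other pathway genes tested, 18 differed by more than 0.5 on the log2 scale between the p53(flox/flox) libraries, against 1 in p53(+/+) and 1 in p53(M/M), while of all genes tested 34.0%, 0.717% and 2.13% did so. Most of these 18 genes were higher in replicate 2. Of the members among them, Id2 and Id3 were higher in replicate 1, and Smad3 and Smad7 in replicate 2 (by 0.69 on the log2 scale each). Replicate 2 was also the higher for Tgfb3, a TGF-beta ligand named after its values were seen, at 6.61 against 1.15 RPKM. Id1 was close in both p53(flox/flox) replicates. Bmp4 stood at the floor in both, where the values cannot show a difference between replicates. Marker lists of other cell types were set beside these values. Of 9 mesenchymal markers, 3 were at the floor in all libraries, and the summed level was 58.0 to 77.0 RPKM in p53(+/+), 40.4 to 79.6 in p53(flox/flox) and 293 to 315 in p53(M/M), where it was carried by Vim at 306 and 284 RPKM. The defining stromal gene Col1a1 was at the floor in every library except p53(flox/flox) replicate 2, at 2.44 RPKM, in which Acta2 reached 11.5 RPKM. Dcn, Pdgfra and Pdgfrb also left the floor only in that library, at 1.05, 1.23 and 1.36 RPKM. Vim, in contrast, was lower in that library (19.8 RPKM) than in replicate 1 (71.6). So was the summed level (40.4 against 79.6), which Vim carried in replicate 1. The part of mesenchymal cells in the differences between these replicates was not tested. Of 6 leukocyte and 4 endothelial markers, 5 and 3 were at the floor in all libraries, the exceptions being Cd68 and Cdh5. Cd68 was at 10.2 and 9.87 RPKM in p53(+/+), 2.06 and 11.1 in p53(flox/flox) and 2.22 and 2.41 in p53(M/M), and Cdh5 at 8.88 and 9.35, 1.00 and 3.30, and 1.04 and 1.00. The 8 epithelial markers summed to 2697 to 2734 RPKM in p53(+/+), 4022 to 4270 in p53(flox/flox) and 2228 to 2372 in p53(M/M). This sum separated the genotypes in the same order as Id1 and was carried by Krt8, Krt18 and Krt19, which each had that order. None of the other epithelial markers separated all of the genotypes. Cdh1 was lower in p53(M/M), at 209 and 201 RPKM, than in every other library. Vil1 was lower in p53(M/M), at 99.7 and 98.5, than in p53(+/+), at 108 and 117. Cdx2 was highest in p53(flox/flox), at 104 and 52.8. Epcam was instead higher in p53(M/M), at 330 and 351 RPKM, than in p53(+/+), at 306 and 280, and Krt20, low in every library, had its highest mean in p53(M/M). The part of this sum in the differences of the members was not tested. Fewer cells of a type and less RNA per cell cannot be told apart in these bulk samples.

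**Figure D4:**
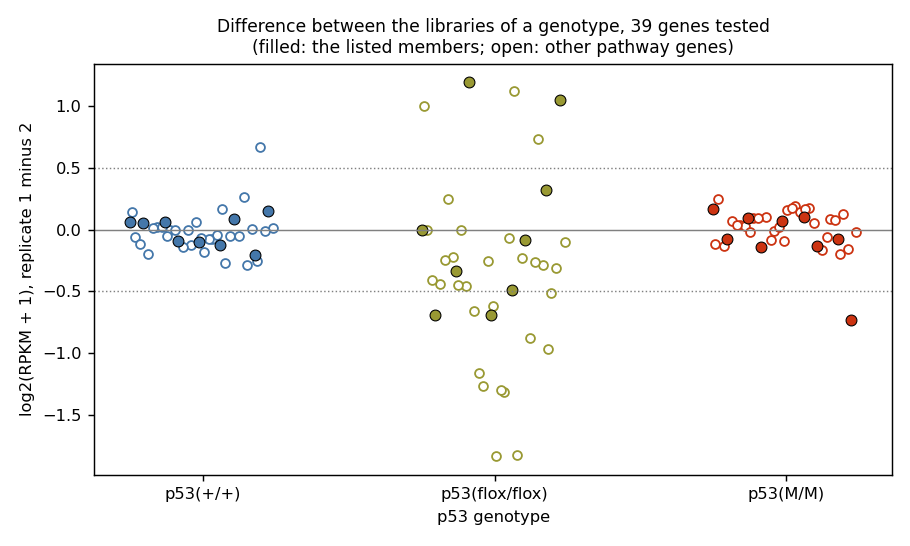
Difference in log2(RPKM + 1) between replicate 1 and replicate 2 of each genotype for 39 pathway genes, with filled points for the members and open points for the other genes; dotted lines mark 0.5 in either direction. In p53(flox/flox) 18 genes lie outside the lines, and in each of the other genotypes 1 gene does.

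The chromosomes on which the members lie did not shift as a whole. The median log2 fold change of the genes tested on each of these chromosomes was -0.02 to 0.09 for p53(M/M) against p53(+/+), -0.11 to -0.01 for p53(flox/flox) against p53(+/+) and 0.05 to 0.13 for p53(M/M) against p53(flox/flox). Across the 6 libraries, the genes outside these lists whose log2(RPKM+1) was most like that of Id1 were Lrp10, Pkp2, Tpm3, Icam1 and Gm16517, with Pearson r from 0.994 to 0.998. Those most like Bmp4 were Defa22, Acbd5, Plekhb1, Amigo1 and Adamts17, with r from 0.998 to 0.999. Over 6 points in 3 genotypes such values are a description of shared order, and for Defa22 the authors' counting could have divided reads among near-identical defensin genes.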

How the data were processed

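Poly(A) RNA from 2 organoid preparations of each of 3 genotypes was sequenced as stranded libraries (Illumina HiSeq). Reads were mapped to mm10, and the authors deposited RPKM values from StrandNGS for each library; its version, annotation and filters are not given in the sources used here. RPKM normalizes for depth and gene length, so levels can be compared between genes, but counts are not in the table, and values under 1 are unknown. The depth estimate covers counting error only.

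Values were used as deposited. Genes reaching 4 RPKM in any library were fitted on log2(RPKM+1) with limma 3.58.1 in R 4.3.3 (lmFit, eBayes with trend, two-sided, 6 libraries, no covariates), and a gene was called at a Benjamini-Hochberg adjusted p under 0.05. The added 1 understates changes of low genes. Coordinates are from GENCODE M21 on GRCm38 and start site windows from RefSeq. Python 3.11.15 with scipy 1.17.1 and matplotlib 3.10.9 was used. The code was tested on simulated data. The members, the other pathway genes and the markers were chosen with earlier results of these data known, and 1 pathway gene is not reported here. The text names all members, pathway genes called in a comparison, a set of 8 (Smad1, Smad4, Smad5, Bmp2, Tgfb1, Bambi, Grem1 and Nog) whatever their values, Trp53, and the 5 genes most like Id1 and Bmp4; Tgfb3 was added after its values were seen. Alternatives were a pseudocount of 0.1, a filter of over 1 RPKM, median-of-ratios scaling, no trend, weights for each genotype, fits of 2 genotypes, a block on the replicate number and each library left out. The labels do not say whether genotypes were processed together. Same-numbered libraries come from different mice.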

Additional observations from a re-analysis of the deposited data

How the results depend on the processing

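Under 14 alternatives, 2 of the 9 calls of members held throughout: Bmp4 and Id1 between p53(M/M) and p53(flox/flox). Bmp4 stood at the floor in both p53(flox/flox) libraries, so that genotype added no spread to its fit. Numbers of genes called by limma depended on how the spread of the p53(flox/flox) libraries entered the fit. With weights for each genotype, 5 members, 24 other pathway genes and 5987 genes in all were called for p53(M/M) against p53(+/+), 1, 1 and 150 for p53(flox/flox) against p53(+/+), and 3, 4 and 534 for p53(M/M) against p53(flox/flox). With fits of the 2 genotypes compared, the numbers were 5, 23 and 5721, then 0, 0 and 47, then 2, 4 and 378. A pseudocount of 0.1 left 1 member called for p53(M/M) against p53(+/+), and a filter of over 1 RPKM gave 1907 genes in all. Leaving out 1 library gave 0 to 5 members, 0 to 23 pathway genes and 0 to 5746 genes in all for p53(M/M) against p53(+/+), 0 to 8, 0 to 23 and 8 to 6891 for p53(flox/flox) against p53(+/+), and 2 to 9, 2 to 27 and 165 to 7241 for p53(M/M) against p53(flox/flox); the remaining library was then assumed to vary like the other genotypes. Deviations of same-numbered libraries correlated across genes at 0.117, -0.291 and -0.196 between p53(+/+) and p53(flox/flox), p53(+/+) and p53(M/M), and p53(flox/flox) and p53(M/M). These values differ in sign, so the numbers were not taken as a pairing. They cannot show whether libraries were processed together. With the replicate number as a block, 1 member, 2 pathway genes and 550 genes were called for p53(M/M) against p53(+/+), 280 genes for p53(flox/flox) against p53(+/+), and 3 members and 1156 genes for p53(M/M) against p53(flox/flox). With the p53(M/M) numbers exchanged, a pairing chosen after seeing the data, 1 member and 2 pathway genes were called for p53(M/M) against p53(+/+).

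The direction turned in 9 of 644 values of single genes. For Smad3 in p53(M/M) against p53(+/+) the log2 fold change was -0.0156 with median-of-ratios scaling and -0.0466 to 0.0521 when 1 library was left out, below 0 without p53(+/+) replicate 1 and, at -0.0307, without p53(M/M) replicate 1. With 1 library left out, Smad3 ranged from -0.46 to 0.23 in p53(flox/flox) against p53(+/+) and from -0.23 to 0.46 in p53(M/M) against p53(flox/flox), and turned in both without p53(flox/flox) replicate 1. Tgfbr2 in p53(flox/flox) against p53(+/+) ranged from -0.18 to 0.15, and was 0.0845 without p53(+/+) replicate 2 and 0.15 without p53(flox/flox) replicate 2. Id3 in p53(M/M) against p53(+/+) ranged from -0.48 to 0.25, above 0 without p53(M/M) replicate 1. Id2 in p53(M/M) against p53(flox/flox) ranged from -0.52, without p53(flox/flox) replicate 2, to 0.67. Of these turned values, limma called that of Id2 (adjusted p=0.00359) and not the other 8. The causes were not tested.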
